A study of Mus musculus with 6 samples.

Results

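The genes described here are Hmga1 and Hmga2, the RNA-binding regulators Lin28a, Lin28b, Igf2bp1, Igf2bp2 and Igf2bp3, and the noncoding RNA H19, a set of 8 genes known for high activity in the embryo and in tumours. They were picked out by gene symbol, and they were proposed with the comparison of genotypes in these libraries already known. Their differences between genotypes are therefore given as a description with standard errors and without p-values. Whether the fit over all genes called them is stated in a single paragraph beside the share of all genes called. Counts of them under other settings stand in the last section beside the number of all genes called. Nothing is read from either. Of the 8 genes, 6 had a row among the 21374 genes of the table. Lin28a and Lin28b had none, so their expression was not analysed here and only their sequences are described. Every gene in the table had at least 10 reads over the 6 libraries.

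The libraries came from distal colon of male C57BL/6 mice, from tissue that was left beside tumours once these were excised. All mice received azoxymethane, a colon carcinogen, at 6 weeks of age. Then came 3 rounds of the epithelial irritant dextran sulfate sodium (1.5%, 4 days), with 14 days of plain water after each. Tissue was collected on day 81 (age 18 weeks) from mice labelled wild type (3 libraries) and Otud1-/- (3 libraries). No group without the carcinogen was compared, and the labels give neither the deleted part of Otud1 nor whether each library was 1 animal. Differences are therefore set against the spread between libraries, part of which may be technical.

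HMGA proteins bind the minor groove of AT-rich DNA and bend chromatin. LIN28 proteins bind the precursors of let-7 microRNAs and block their maturation. IGF2BP proteins coat messenger RNAs, many of them carrying N6-methyladenosine, and keep them stable. Mature let-7 in turn represses HMGA2, LIN28 and IGF2BP messages, so the group forms a circuit that is switched from fetal to adult by let-7. H19 is transcribed next to Igf2 from the maternal chromosome, and its first exon holds the precursor of miR-675. In the adult colon these genes are known mainly from crypt progenitors, regeneration and tumours.

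The let-7 seed and its matches are shown first because every coding gene of the group holds at least 1 match. Of 11 mature names of the let-7 family found in the RefSeq table (GRCm38.p6), 10 share the seed GAGGUAG (bases 2 to 8, in capitals below), and let-7j differs. Representatives of the family and both arms of miR-675 read, 5′ to 3′:
let-7a-5p: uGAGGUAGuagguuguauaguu
let-7g-5p: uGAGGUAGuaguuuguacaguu
miR-98-5p: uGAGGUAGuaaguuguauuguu
let-7j: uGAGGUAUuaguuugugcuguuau
miR-675-5p: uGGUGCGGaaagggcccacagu
miR-675-3p: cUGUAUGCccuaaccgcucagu
The miR-675 arms have other seeds. MicroRNAs themselves were not measured in these libraries.

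The sequence CTACCTC, which pairs with that seed, was searched on the sense strand of the longest annotated 3′ UTR of each gene (GENCODE M21). All 7 coding genes held it: Hmga2, Lin28b and Igf2bp1 each had 4 matches, Lin28a had 2, and Hmga1, Igf2bp2 and Igf2bp3 had 1 each. Over all 21020 genes with an annotated 3′ UTR, 9.02% held at least 1 match. Among 2889 genes with a 3′ UTR within 25% of the length of that of Hmga2 (3014 bases), 15.9% held a match and 0.104% held 4 or more. The share of genes of like length with as many matches or more was 0.179% for Lin28b, 0.132% for Igf2bp1 and 1.85% for Lin28a. For the single matches of Hmga1, Igf2bp2 and Igf2bp3 it was 8.07%, 11.5% and 12.9%. A match is a description of the letters and not evidence of repression. Windows of 30 bases around the matches of Hmga2 and the match of Hmga1, the genes whose libraries separated by label below, are given with the match in capitals (GRCm38). Hmga2 lies on the minus strand and Hmga1 on the plus strand.
Hmga2, chr10:120364224-120364253: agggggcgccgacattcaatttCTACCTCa
Hmga2, chr10:120362987-120363016: caataatccccactcctcaataCTACCTCt
Hmga2, chr10:120362549-120362578: ggacttcctgatttgcaaggaaCTACCTCc
Hmga2, chr10:120361691-120361720: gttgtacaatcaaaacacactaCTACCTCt
Hmga1, chr17:27563270-27563299: catcttctcctctgttcacaaaCTACCTCt

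**Figure D1:**
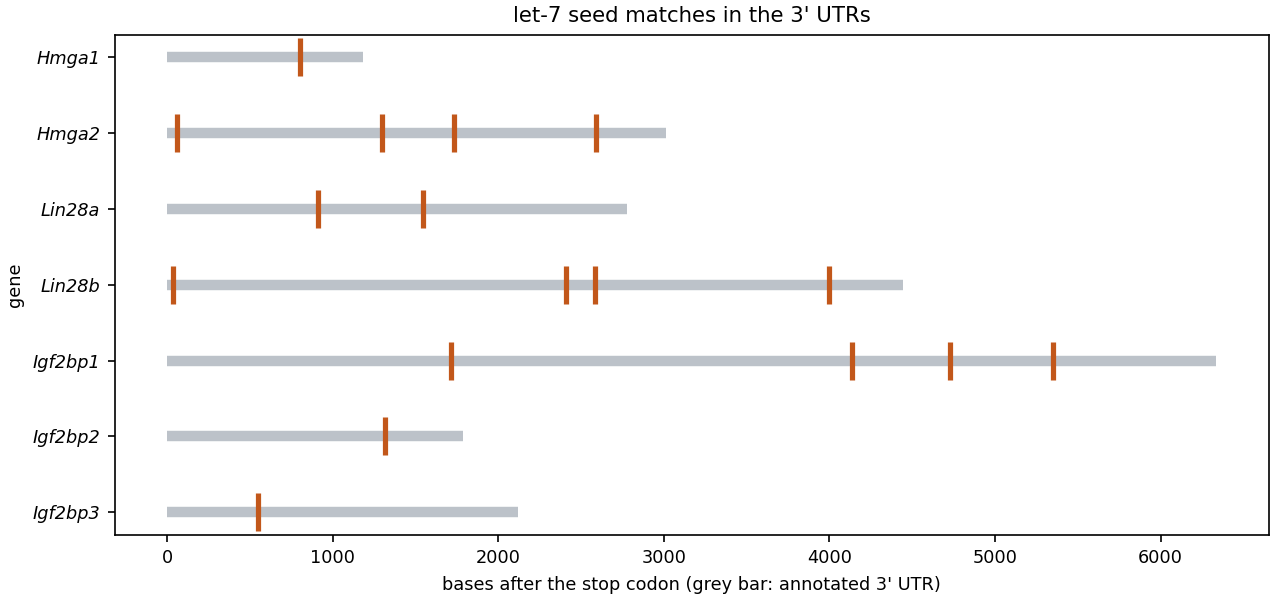
Positions of the let-7 seed match (vertical marks) along the longest annotated 3′ UTR of the 7 coding genes (grey bars, in bases after the stop codon). Hmga2, Lin28b and Igf2bp1 carry 4 marks each, and the first mark of Hmga2 lies 58 bases after the stop codon.

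In promoter windows from 250 bases before to 50 after the start (RefSeq, GRCm38.p6), 6 of the 8 genes were found. The E-box CACGTG, the binding motif of Myc, was present on either strand in Igf2bp3 (2 matches) and Lin28b (1 match), against 7.15% of 32851 promoters with at least 1. The core CTTTGAT of TCF/LEF factors, searched on both strands, was in none of the 6, against 3.73% of all promoters. These letters being absent from the window says nothing about the factors elsewhere in the locus.

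Values are normalised read counts, the reads of a gene divided by the size factor of its library. The libraries held 15300937 to 19406407 reads in genes. Otud1 itself was more abundant under the Otud1-/- label (141, 150 and 208) than under the wild type label (111, 45.1 and 48.9), the reverse of a loss of its RNA. Because the deleted part of Otud1 is not given, these reads cannot decide whether the labels are right. All directions below are between libraries as labelled. Wild type 1 and Otud1-/- 1 lay at the opposite ends of the first principal component (-86.5 and 83.3, against -25.8 to 28.2 for the other 4). Every wild type library had a negative value on this component and every Otud1-/- library a positive one, so it also separated the labels. Differences without wild type 1 and Otud1-/- 1 are given beside those over all 6. Leaving out this pair removes the extremes of a component that separates the labels. A smaller difference without the pair therefore does not show that the difference rested on outlying libraries. All 15 colon epithelium markers were present in every library, among them Epcam at 29230 to 42135 normalised reads.

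Per kilobase of exon, Hmga1 was the most abundant of the 6 genes in every library. Its mean over the 6 libraries was 494 normalised reads per kb, above 90.2% of all genes. H19 (115 per kb) and Igf2bp2 (44.2 per kb) followed. Their order was not stable, since Igf2bp2 lay above H19 in wild type 1 and Otud1-/- 2 and below it in the other 4 libraries. Hmga2 stood at 10.1 per kb, higher than 30.0% of all genes. Igf2bp1 (1.32 per kb) and Igf2bp3 (1.11 per kb) were near the floor of the table, above 6.41% and 5.34% of genes, and changed places between libraries. The median over all genes was 41.3 per kb.

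Hmga1 encodes the architectural HMGA protein of proliferating cells and lies on chromosome 17, 27556497 to 27563674. Wild type libraries held 765, 753 and 966 normalised reads, whereas Otud1-/- libraries held 1548, 1147 and 1121. All 3 of the latter were above all 3 of the former. The means were 828 ± 119 (SD, n = 3) and 1272 ± 239 (SD, n = 3), a log2 difference of 0.61 ± 0.16 (SE). Without wild type 1 and Otud1-/- 1 it was 0.41. Its retrocopy Hmga1b on chromosome 11 shares sequence with it: 89.0% of the 50-base windows of Hmga1b transcripts also occur in Hmga1. How reads were divided between the pair is not stated, so both values are uncertain. Hmga1b was lower than Hmga1 throughout, at 81.2, 93.1 and 111 against 191, 127 and 105, and there the labels overlapped.

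Hmga2, the fetal paralog that adult tissue largely switches off (chromosome 10, 120361275 to 120476469), had the clearest separation in the group. Wild type libraries 1 to 3 stood at 15.8, 29.2 and 25.5 normalised reads, whereas Otud1-/- libraries 1 to 3 stood at 179, 67.5 and 93.9. The lowest library labelled Otud1-/- exceeded the highest labelled wild type by 38.3. The means of 23.5 ± 6.89 and 114 ± 58.4 (SD, n = 3 each) gave a ratio of 4.83 and a log2 difference of 2.15 ± 0.40 (SE). Without wild type 1 and Otud1-/- 1 the difference was 1.51. These values rest on 15, 31 and 25 reads in wild type and 210, 60 and 93 in Otud1-/-.

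H19, the imprinted noncoding RNA of chromosome 7 (142575529 to 142578143), varied more than any other of the 6 genes. Wild type 1, 2 and 3 held 11.6, 93.1 and 208 normalised reads, whereas Otud1-/- 1, 2 and 3 held 896, 99.0 and 388. The lowest and highest library differed 77.2-fold, and Otud1-/- 2 lay inside the wild type range. The means were 104 ± 98.7 and 461 ± 404 (SD, n = 3 each), with a log2 difference of 2.38 ± 1.37 (SE). It was 0.49 without wild type 1 and Otud1-/- 1, and 1.22 without wild type 1 alone. The spread within labels (SD 1.86 on the log2 scale) was above that of 99.7% of the 1708 genes with a mean within 25% of its own, whose median was 0.22.

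Igf2bp2, the family member that stays active in adult tissue (chromosome 16, 22059009 to 22163299), also varied within labels. Wild type 1, 2 and 3 held 461, 190 and 132 normalised reads, against 138, 621 and 422 for Otud1-/- 1, 2 and 3. Here the libraries numbered 1 ran against the others, wild type 1 being the highest of its label and Otud1-/- 1 the lowest of its own. The log2 difference was 0.55 ± 0.73 (SE) over all libraries and 1.69 without that pair. Other omissions lowered it, to 0.10 without Otud1-/- 2 and 0.16 without wild type 3, so its size rested on single libraries of either label. Its SD within labels, 1.03 on the log2 scale, exceeded that of 98.2% of 1806 genes of like mean.

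Igf2bp1 and Igf2bp3, the oncofetal paralogs, were barely detected. Igf2bp1 (chromosome 11, 95957163 to 96005940) had 6.33, 9.40 and 9.18 normalised reads in wild type and 17.1, 31.5 and 3.03 in Otud1-/-. Its highest and lowest libraries both carried the Otud1-/- label, and the log2 difference was 0.54 ± 0.72 (SE). It was 0.15 without wild type 1 and Otud1-/- 1, -0.11 without Otud1-/- 2 and 1.40 without Otud1-/- 3. Igf2bp3 (chromosome 6, 49085223 to 49214957) had 8.44, 10.3 and 12.2 in wild type and 3.41, 9.00 and 11.1 in Otud1-/-, from 4 to 12 reads per library. Its log2 difference was -0.47 ± 0.51 (SE), -0.16 without wild type 1 and Otud1-/- 1, and -0.03 without Otud1-/- 1 alone. Of its exon bases, 18.7% overlap Malsu1 on the opposite strand, and the strand setting of the counting is not given in the sources used here, so some of these few reads could belong to that gene.

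**Figure D2:**
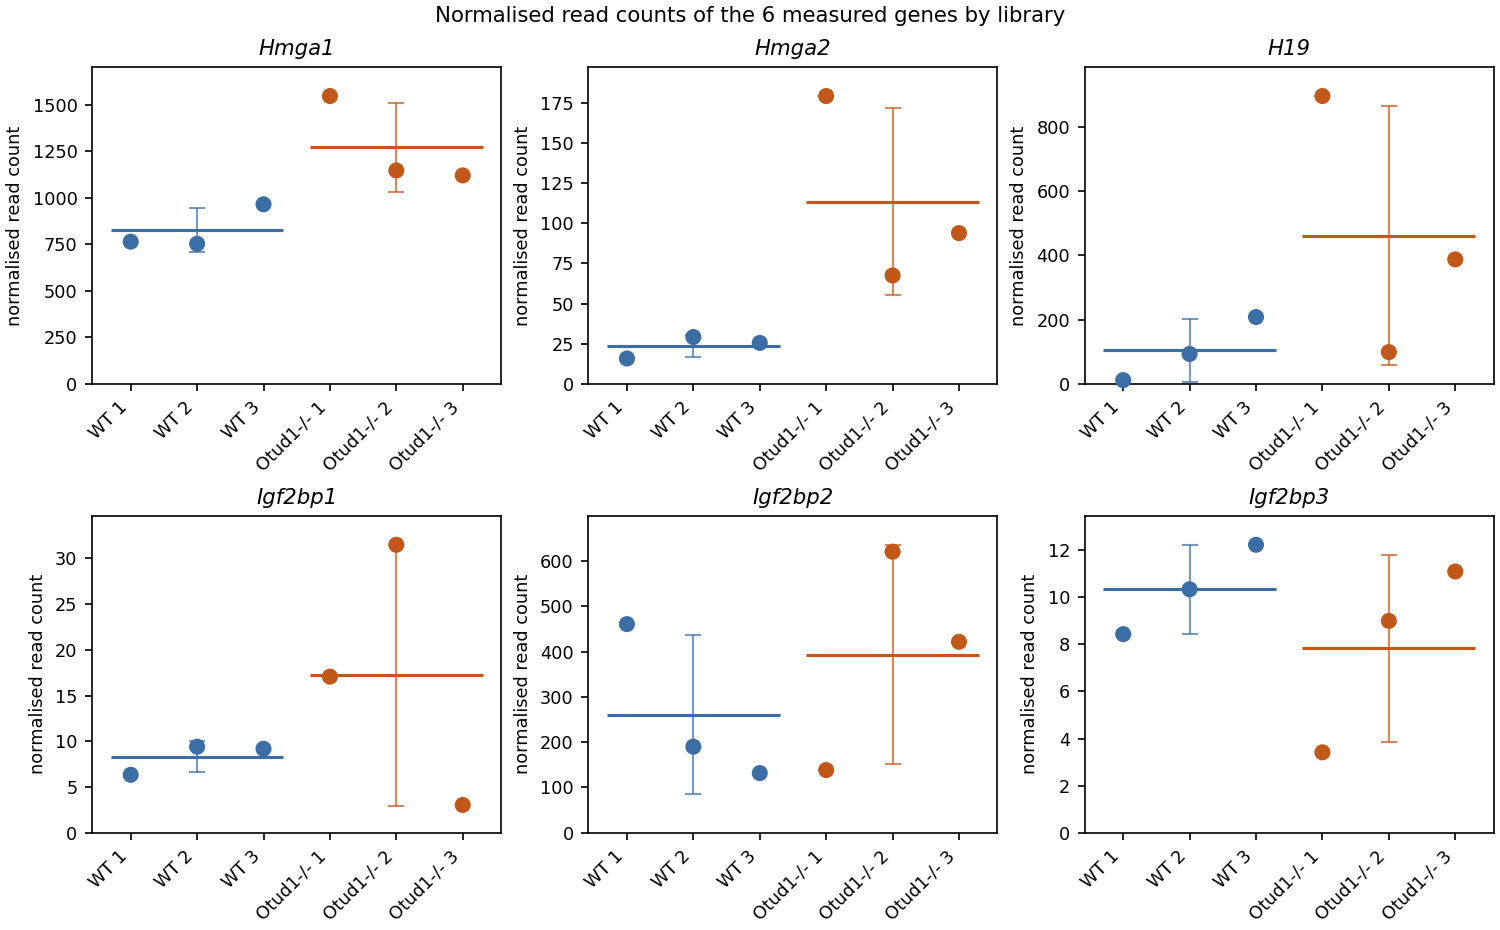
Normalised read counts (vertical axes, linear, each from 0) of the 6 measured genes in each library, with wild type in blue and Otud1-/- in orange; horizontal lines are means and bars are SDs over 3 libraries. The labels separate in Hmga1 and Hmga2 and overlap in H19 and the 3 Igf2bp genes.

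Of the 6 genes, 5 had a positive difference between the labels, with a median of 0.58 on the log2 scale against 0.02 over all 21281 tested genes. The labels did not overlap in 2 of the 6, Hmga1 and Hmga2, where 26.3% of all tested genes did not overlap (13.0% with every Otud1-/- library above every wild type library, and 13.3% below). In the fit across all genes (limma, Benjamini-Hochberg adjusted p under 0.05) Hmga2, higher under the Otud1-/- label, was the only 1 of the 6 called, as were 0.949% of all tested genes (0.282% higher and 0.667% lower). Nothing is read from these counts, since the genes were proposed with this contrast known. Hmga2 was also called without Otud1-/- 2, a fit that called 340 of 21063 tested genes. It was not called without wild type 1, 2 or 3 or without Otud1-/- 1 or 3. Without wild type 1 and Otud1-/- 1 together, Hmga2 and Igf2bp2 were called, in a fit that called 394 of 20687 tested genes.

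**Figure D3:**
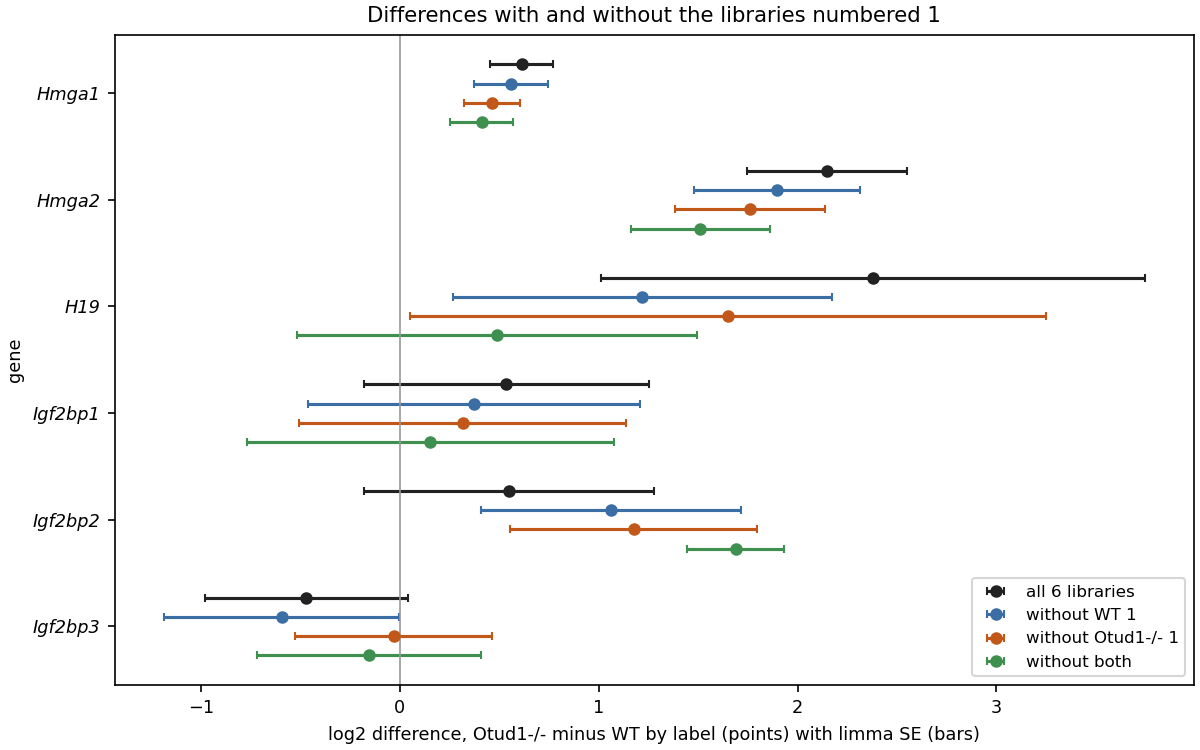
Log2 difference between libraries labelled Otud1-/- and wild type (points) with limma's standard error (bars), over all 6 libraries and without wild type 1, Otud1-/- 1 or both. Leaving out both lowers H19 from 2.38 to 0.49 and Hmga2 from 2.15 to 1.51, and takes Igf2bp2 from 0.55 to 1.69.

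Marker genes of cell types moved between the same libraries. The summed stem cell and Wnt target list (15 genes, all present) came to 2592, 8154 and 6967 normalised reads in wild type 1, 2 and 3, whereas Otud1-/- 1, 2 and 3 reached 35384, 13758 and 10327. Its extremes were therefore the same libraries as those of Hmga2 and H19. Within this list Lgr5, the receptor that marks crypt stem cells, went from 3.16 in wild type 1 to 1051 in Otud1-/- 1. The proliferation list (15 genes) summed to 9901, 11797 and 10171 against 17102, 12307 and 15260. Its highest library was Otud1-/- 1, as for Hmga1.

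Igf2bp2 had another pattern. The T and NK cell list (10 genes, 1 of them below 1 in some library) summed to 1443, 721 and 532 in wild type and 453, 845 and 738 in Otud1-/-, so wild type 1 and Otud1-/- 2 were the 2 highest in both. The same libraries were highest in the endothelium list (7 genes), at 2268, 2118 and 1728 in wild type and 1790, 2598 and 2057 in Otud1-/-. Smooth muscle markers (12 genes) summed to 42987, 45146 and 40947 against 66641, 134581 and 99997. The epithelium list (15 genes) summed to 623286, 562368 and 654025 against 320052, 496285 and 397959. The part of cell content in the values of the Hmga, Igf2bp and H19 genes was not tested. In bulk tissue, fewer cells of a type and less RNA per cell cannot be told apart.

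**Figure D4:**
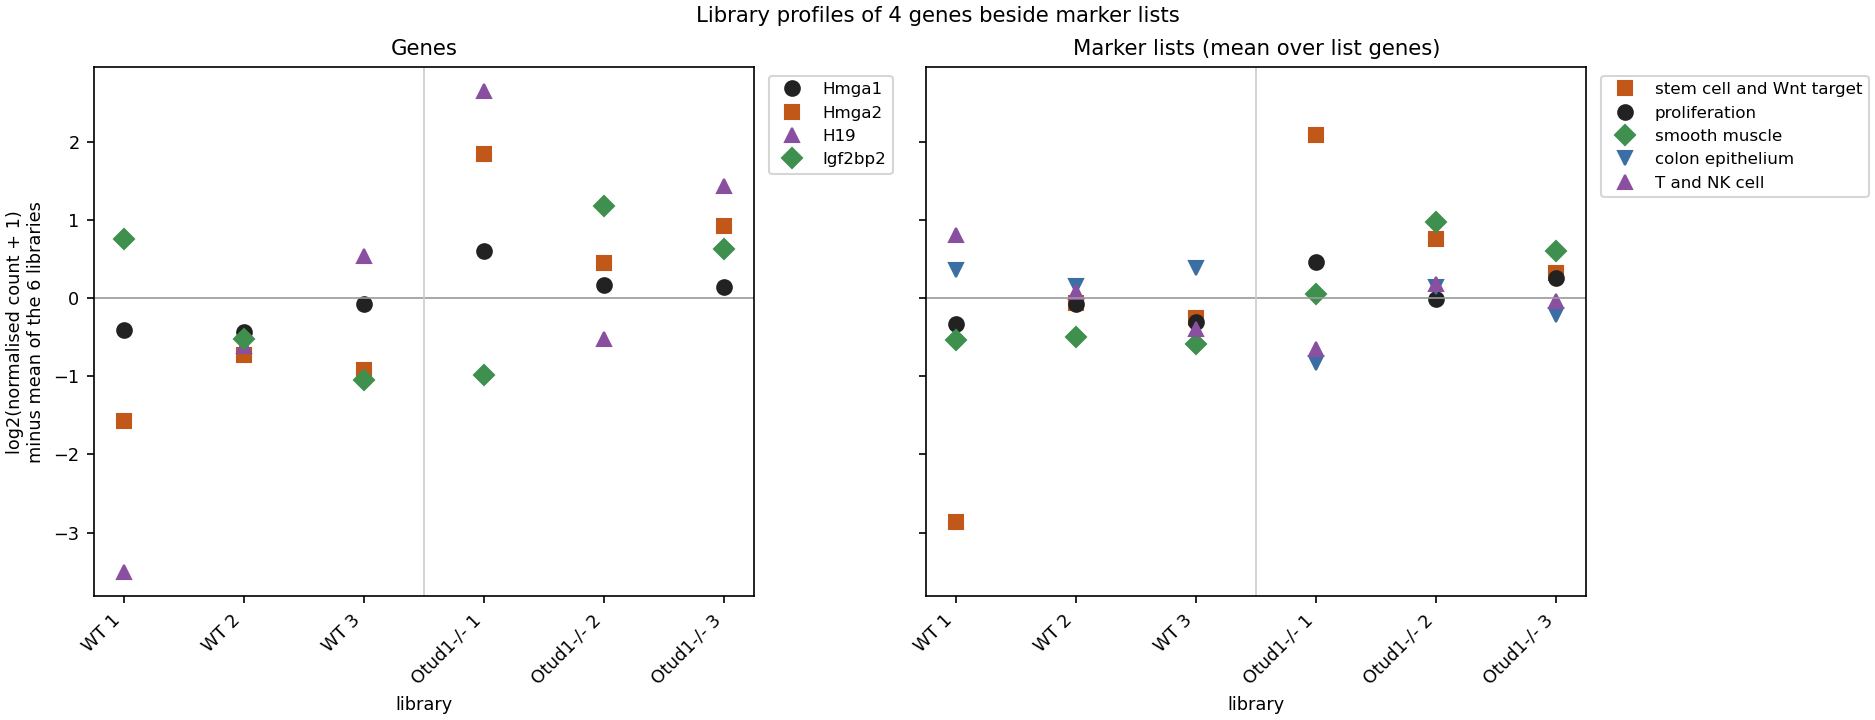
Log2(normalised count + 1) minus the mean of the 6 libraries for 4 genes (left) and for the mean of 5 marker lists (right), by library. H19, Hmga2 and the stem cell and Wnt target list are lowest in wild type 1 and highest in Otud1-/- 1, while Igf2bp2 is low in Otud1-/- 1.

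Genes with the most similar profile over the 6 libraries were sought among 11122 named genes with a mean of at least 100, by the root mean square difference of centred log2 values. For Hmga1 these were Bex3 (0.04), Mcrip1 (0.06) and Zdhhc14 (0.07). Bex3 had 333, 337 and 425 normalised reads in wild type and 684, 505 and 529 in Otud1-/-. For Hmga2 the nearest were Ptpro (0.30), Smoc2 (0.30), a Wnt-responsive matrix gene of crypt stem cells, and Rnf32 (0.33). Smoc2 had 189, 535 and 566 against 2865, 973 and 1218. H19 was nearest to Spp1 (0.37), which encodes the secreted phosphoprotein osteopontin, then to Itln1 (0.57) and R3hdml (0.58). Spp1 had 6.33, 58.3 and 237 in wild type and 556, 83.2 and 208 in Otud1-/-. Like H19 it was lowest in wild type 1 and highest in Otud1-/- 1, but it was higher in wild type 3 than in Otud1-/- 3, where H19 was lower. Igf2bp2 was nearest to Phf11b (0.31), Flnc (0.34), an actin cross-linker of muscle, and Car12 (0.38). Flnc had 1323, 553 and 570 against 745, 1803 and 1475.

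Counts of genes at an unadjusted p under 0.05 in the lists below stand beside 19.5% of all tested genes (4143 of 21281), and counts of called genes beside 0.949%. The let-7 processing genes showed no called change. Of 15 tested (Drosha, Dicer1, the Argonautes, the LIN28-recruited uridylyltransferases and others), 0 were called by limma with Benjamini-Hochberg adjustment, 4 had an unadjusted p under 0.05 and the median difference was 0.04. Tut7, which adds uridines to pre-let-7, had 2706 ± 73.0 normalised reads in wild type and 1990 ± 339 in Otud1-/- (SD, n = 3 each; limma adjusted p = 0.119). It was called only in the fit without Otud1-/- 2 (limma adjusted p = 0.0442, within 0.0442 to 0.743 in all alternatives). Its log2 difference was -0.46, and -0.37 without wild type 1 and Otud1-/- 1. Xpo5, the exporter of microRNA precursors, had 375 ± 58.5 against 494 ± 73.0 (limma adjusted p = 0.232), a log2 difference of 0.40 that was 0.15 without wild type 1 and Otud1-/- 1. Of the host transcripts, 2 had a row. Mir99ahg, whose locus holds a let-7c precursor, had 4.22, 5.64 and 1.02 against 20.5, 19.1 and 12.1 (log2 difference 2.11 ± 0.56 SE, limma adjusted p = 0.102; 2.15 without the pair numbered 1). Huwe1, whose locus holds let-7f and miR-98, was level at 4838 ± 319 and 4932 ± 531 (limma adjusted p = 0.937; log2 difference 0.02, and -0.05 without that pair).

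Among 26 textbook let-7 targets outside the group, 1 rose and none fell (limma, Benjamini-Hochberg adjusted p under 0.05), and 8 had an unadjusted p under 0.05. Igf1r, the receptor for insulin-like growth factors, had 257, 277 and 231 normalised reads in wild type and 534, 408 and 470 in Otud1-/-. The labels did not overlap, and the log2 difference was 0.88 ± 0.15 (SE, limma adjusted p = 0.044). Of the fits without 1 library, its call held only in the fit without Otud1-/- 2, and its adjusted p ran up to 0.175 over all settings. Without wild type 1 and Otud1-/- 1 together the difference was 0.79 and no longer called (limma adjusted p = 0.0537). The median of the list was 0.01, with 14 positive and 12 negative differences. Genes outside the group with 2 or more let-7 matches in their 3′ UTR (188 genes) had a median difference of -0.01, those with 1 match (1425 genes) 0.01 and those with none (14346 genes) 0.01.

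Of the other chromatin proteins of the high mobility group, none passed the test. Of 13 tested, 11 had positive differences (against 51.7% of all genes), 0 were called by limma, 5 had an unadjusted p under 0.05 and the median was 0.16. Hmgn1, which binds nucleosomes, had 1155, 1371 and 1382 normalised reads in wild type and 3390, 1873 and 1970 in Otud1-/- (log2 difference 0.84 ± 0.22 SE, limma adjusted p = 0.109). Hmgb3 had 290, 395 and 391 against 886, 463 and 559 (0.78 ± 0.24 SE, limma adjusted p = 0.139). In both genes Otud1-/- 1 was the highest library, as it was in the proliferation list. Leaving out wild type 1 and Otud1-/- 1 gave differences of 0.48 for Hmgn1 and 0.37 for Hmgb3, and without Otud1-/- 1 alone Hmgb3 stood at 0.52.

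None of 19 messages and partners of IGF2BP proteins was called by limma (6 at an unadjusted p under 0.05, median 0.11). Myc, whose message IGF2BP1 protects, had 487, 673 and 467 normalised reads in wild type and 1109, 722 and 835 in Otud1-/- (log2 difference 0.71 ± 0.19 SE, limma adjusted p = 0.108). Igf2, the growth factor message that named the family, had 38.0, 33.9 and 40.8 against 89.6, 74.2 and 57.5 (0.94 ± 0.27 SE, limma adjusted p = 0.119). The labels did not overlap in either gene. Without the pair of libraries numbered 1, Myc stood at 0.47 and Igf2 at 0.80. Of 16 genes that write, erase or read N6-methyladenosine, 0 were called by limma (3 at an unadjusted p under 0.05, median 0.03). The nearest to the threshold were the eraser Fto (626 ± 82.7 against 848 ± 66.6, limma adjusted p = 0.127) and the writer Mettl16 (327 ± 10.6 against 412 ± 42.9, limma adjusted p = 0.234). Their log2 differences without the same pair were 0.30 and 0.28, against 0.44 and 0.33 over all libraries.

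Of the imprinted genes that are usually listed with H19, and the imprint regulators Ctcf and Zfp57 kept in the same list, none was called. Of 19 tested, 17 had positive differences, the median was 0.70 against 0.02 over all genes, 8 had an unadjusted p under 0.05 and 0 were called by limma. In 9 of the 19 all libraries labelled Otud1-/- lay above all labelled wild type, as in 13.0% of all genes. Meg3, a maternally expressed noncoding RNA, had 557, 642 and 501 normalised reads in wild type and 766, 902 and 1178 in Otud1-/- (log2 difference 0.73 ± 0.17 SE, limma adjusted p = 0.0789). Rian, from the same imprinted cluster, had 168, 184 and 126 against 224, 298 and 324 (0.82 ± 0.21 SE, limma adjusted p = 0.0978). Unlike H19, neither peaked in Otud1-/- 1. Without wild type 1 and Otud1-/- 1 together both were called, at 0.86 and 1.02 (limma adjusted p = 0.0311 and 0.0423), and Meg3 was also called without Otud1-/- 1 alone. Dcn and Gnas were the genes with negative differences (-0.31 and -0.01). Markers of other cell types were higher in the same libraries. Beside the smooth muscle sums above, the skeletal muscle list (7 of 9 genes present) summed to 143, 145 and 135 in wild type and 308, 429 and 261 in Otud1-/-. The fibroblast list (11 genes) summed to 20094, 25217 and 22639 against 27687, 32090 and 25596. Their part in the imprinted genes' values was not tested.

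Of 19 other oncofetal and regeneration genes tested, 1 rose and 1 fell (limma, Benjamini-Hochberg adjusted p under 0.05). The median was 0.65, with 12 positive differences, and 6 genes had an unadjusted p under 0.05. Ptn, the heparin-binding growth factor pleiotrophin, had 229, 383 and 288 normalised reads in wild type and 1086, 1015 and 734 in Otud1-/- (log2 difference 1.66 ± 0.22 SE, limma adjusted p = 0.0177). Its call was lost without wild type 3 (limma adjusted p = 0.135; all settings spanned 9.16e-09 to 0.142). Ly6a, which encodes Sca-1 and marks regenerating fetal-like epithelium as well as blood cells, fell from 28939, 28316 and 33792 to 12127, 14490 and 17473 (log2 difference -1.06 ± 0.16 SE, limma adjusted p = 0.0292). Ly6a lost its call without wild type 1, 2 or 3, with an adjusted p of up to 0.163 in those fits. Over all settings it was called in 11 of 19 alternatives. With quantile normalisation its difference was -0.63 (limma adjusted p = 0.110), and with scaling to the epithelium list -0.45 (limma adjusted p = 0.228). Ptn stood at 1.38 and Ly6a at -0.96 without wild type 1 and Otud1-/- 1 together, and both were called. Of the blood cell lists, those of macrophages and B cells were lower in the same libraries as Ly6a. The labels overlapped in the T and NK cell list given above. The macrophage and monocyte list (11 genes) summed to 18638, 18952 and 15215 in wild type and 10163, 11038 and 10354 in Otud1-/-, and the B and plasma cell list (8 genes) to 46202, 38928 and 26308 against 14303, 25721 and 22822. Their part in the value of Ly6a was not tested. Hmga2 and Ly6a, both used as signs of a fetal-like state, differed in opposite directions between these labels.

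**Figure D5:**
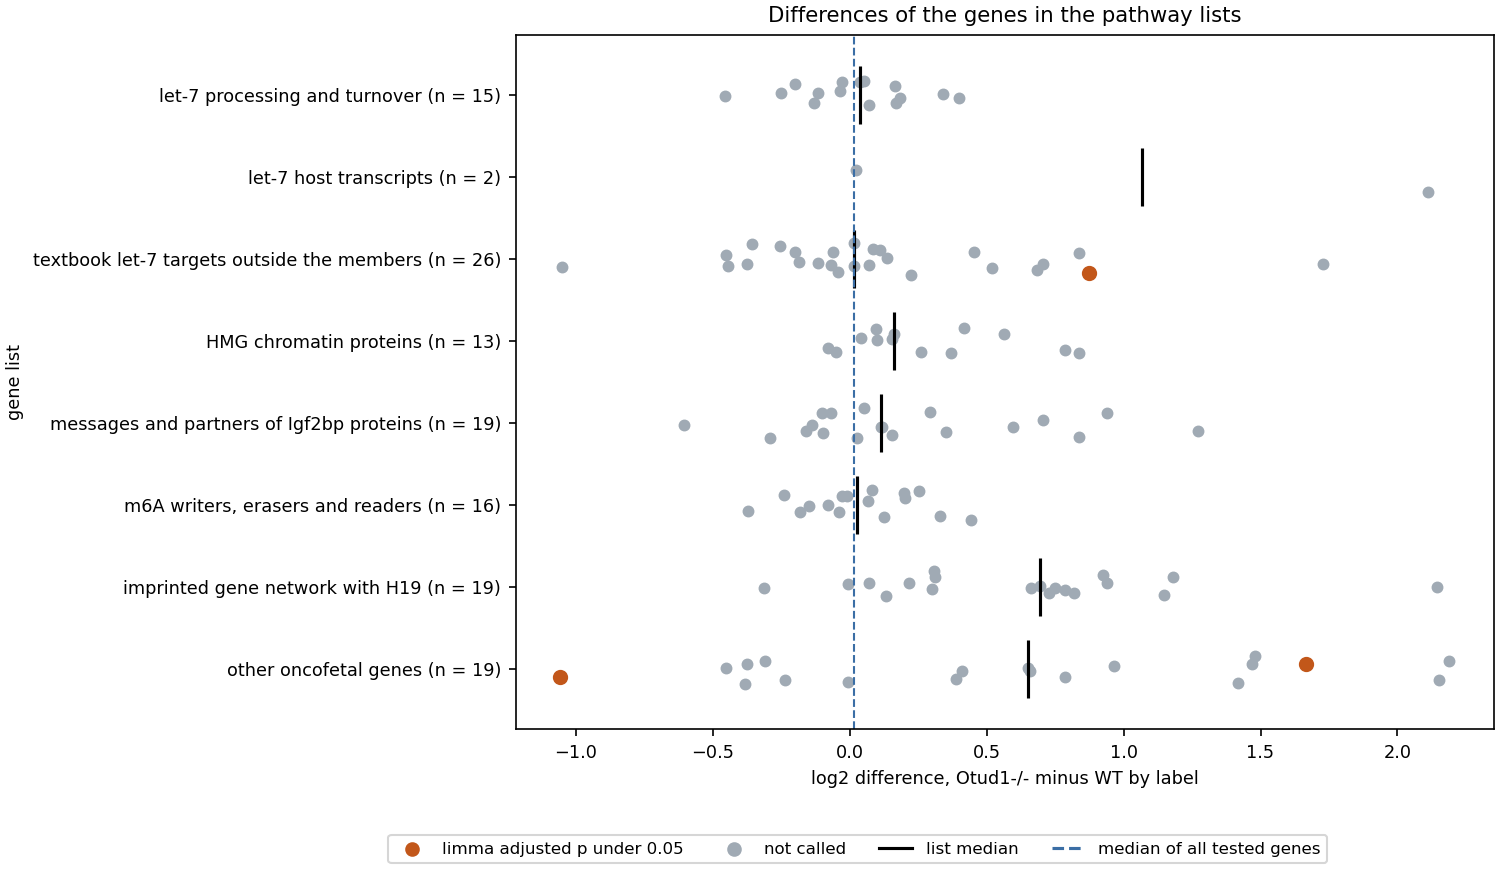
Log2 differences between the labels for the genes of 8 pathway lists (points; orange, limma adjusted p under 0.05), with list medians (black) and the median of all tested genes (dashed). Called genes are Igf1r and Ptn, both higher in libraries labelled Otud1-/-, and Ly6a, lower there. The medians of the imprinted (0.70) and other oncofetal (0.65) lists lie to the right of that of all genes (0.02).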

How the data were processed

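RNA from colon tissue was sequenced in 6 libraries, with Trizol extraction and Illumina libraries per the labels' protocols. Per the submitters' processing notes, reads were placed on mm10. Which aligner, counter, strand setting and annotation were used is not given in the sources used here. The deposited signal is a normalised read count: every value was a whole multiple of 1 step per library (100% of values, within 0.001 of a read), so reads could be recovered. Gene IDs were matched to GENCODE M21 without version (21336 matched, 38 not). Genes with at least 1 normalised read in at least 3 libraries (21281; 93 left out) were tested with limma 3.58.1 (R 4.3.3; trend and robust, two-sided) on log2(value + 1), with Benjamini-Hochberg adjustment over all of them. That scale understates changes of genes with few reads, and reads carry no molecular identifiers. The groups came from the titles, and the genotype was the only term. The fit was also run on simulated reads with the same spread setting for every gene and no outlying libraries. That run therefore cannot vouch for calls in these libraries.

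The genes and lists were chosen with earlier results of these data known. Named were all 8 genes, up to 4 called genes per list (or the 2 with the smallest p), and the 3 nearest profiles of each of the 8 genes with a mean of at least 20. The alternatives were other filters, pseudocounts, scalings, variance models, a replicate block, edgeR 4.0.16 and DESeq2 1.42.0 on recovered reads, and leaving out libraries.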

Additional observations from a re-analysis of the deposited data

How the results depend on the processing

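Over 19 alternatives each, Hmga1 (0.41 to 1.22), Hmga2 (1.51 to 2.73), H19 (0.49 to 3.25) and Igf2bp2 (0.10 to 1.69) kept a positive log2 difference. Igf2bp1 was negative in 2 of 18 (with sample weights, -0.21, and without Otud1-/- 2) and Igf2bp3 positive in 1 of 19 (0.05 with the epithelium list as the scale). With that scale the median of all genes moved by 0.58, so Igf2bp3 lay at -0.54 against it, and total reads moved it by 0.20. Counts depended on the setting. Against 202 called genes (70.3% lower), 1 of the 6 genes and 3 list genes, there were 413 (24.9% lower), 2 and 6 after scaling to total reads, and 1920 (4.38% lower), 3 and 31 with the epithelium scale. Quantile normalisation gave 153 (60.1% lower), with 0 of the 6 genes. A mean of at least 5 gave 122 and 0 of the 6 genes, pseudocounts of 0.1 and 0.01 gave 118 and 110 and 0, and sample weights gave 564, with 7 list genes. Limma without trend and robust called 0, 0 and 0 (3499 genes at an unadjusted p under 0.05). On recovered reads edgeR called 91, 0 and 1, and DESeq2 1412 (52.6% lower), 2 and 15. Leaving out 1 library gave 10 to 340 genes, 0 to 1 of the 6 and 0 to 5 list genes. Leaving out wild type 1 and Otud1-/- 1 together gave 394 (48.7% lower), 2 and 5. The cause of these shifts was not tested. The replicate block gave 18, 0 and 0. Same-numbered libraries did not deviate together (correlations of -0.26, -0.10 and -0.09). Wild type 1 and Otud1-/- 1 lay at opposite ends of the first principal component, which could mask a shared effect. These correlations therefore cannot show whether the libraries share more than a number. Depth limits Igf2bp1 and Igf2bp3, with 3 to 28 and 4 to 12 reads per library.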
